A study of Cyanidioschyzon merolae with 75 samples.

Results

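CMN145C, CMN165C, CMN166C, CMN169C, CMN173C and CMN176C are 6 genes described as core histone genes that lie close together on chromosome 14 of the unicellular red alga Cyanidioschyzon merolae. They were picked by their tags, 6 of the 4576 genes on the array, after their large and similarly timed changes over the day had been seen in these same data. Size and timing of their daily change are therefore given as a description, and tests are kept to differences between the first and the second cycle. The gene table of assembly ASM9120v1 lists all 6 but holds no gene names beyond the tags, so the histone naming could not be checked against it, and which core histone each gene encodes is not stated here. Coding lengths in that table fall into 3 pairs. CMN166C and CMN169C have 312 bases each, CMN145C and CMN173C 357 each, and CMN165C and CMN176C 411 each.

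Core histones are the small basic proteins around which nuclear DNA is wound. H2A, H2B, H3 and H4 join into the octamer at the centre of every nucleosome. A cell that copies its DNA needs new core histones for the second set of chromosomes, and in most eukaryotes studied the genes for them are transcribed chiefly while DNA is being replicated. Animal core histone mRNAs mostly lack a poly(A) tail, while those of land plants and yeasts carry one. The point matters here because amplification started from oligo(dT), which takes up polyadenylated RNA.

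Cells of strain 10D were grown in a culture set in step by light and dark cycles and sampled every 2 h from 2 to 50 h, a span of 2 cell cycles. Each of the 25 sampling times is a group of its own. RNA of a time carried Cy3 and a mixture of all samples carried Cy5, so a ratio above 0 on the log2 scale means more of a transcript than in the mixture, after the median of the array is set to 0. The 75 arrays come in 3 labelled series, and intensities of the third equalled the mean of the other series within 0.01% at 24 of 24 times compared. The series were counted as 1 sample per time, and no replicate culture stands behind any value. In a culture, more cells with a transcript and more of it per cell cannot be told apart.

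The 6 genes gave bright spots. Their Cy5 intensities lay between 10910 and 461240 and their Cy3 intensities between 18867 and 642369, at least 8.88 and 2.88 times the median of the array. Array medians of Cy5 ran from 552 to 14416, with the highest 4 at 2, 4, 6 and 26 h. Between series 1 and 2 the ratios of the 6 genes differed by 0.043 in the median and by at most 0.33 (log2, 144 values compared). This was taken as error of reading that holds no spread between cultures. That both series read 1 sample is inferred here from the comparison of the series and is not stated in the sample titles. The median ratio of the 100 brightest other probes is given beside the results it touches, because ratios of bright probes drifted from 0 on some arrays. It stood between -0.68 and 0.37 at 24 of the times and at -1.57 at 46 h.

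All 6 genes rose and fell together, with a single run of times above the mixture in each cycle. With median centring they also moved together below the mixture at some steps. All 6 gained 0.28 to 0.98 from 26 to 28 h and 0.46 to 1.92 from 46 to 48 h. The brightest other probes stepped by 0.361 and 1.299 there. With loess the median of the 6 did not rise from 46 to 48 h, at -0.211 and -0.633. From 48 to 50 h all 6 fell with median centring, with steps of -1.085 to -0.489, and the brightest other probes stepped by 0.224. In the first cycle each was lowest at 8 h and highest at 16 h with median centring. In the second each was highest at 36 h, 20 h later. With median centring each stood above the mixture at 3 of the 12 times up to 24 h, namely 14, 16 and 18 h. After that each did so at 5 of the 13 times, from 34 to 42 h. The low of the first cycle moved to 10 h with loess in CMN145C, CMN165C, CMN166C and CMN176C. In the authors' deposited log2 values it was at 10 h in CMN145C and CMN165C.

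**Figure D1:**
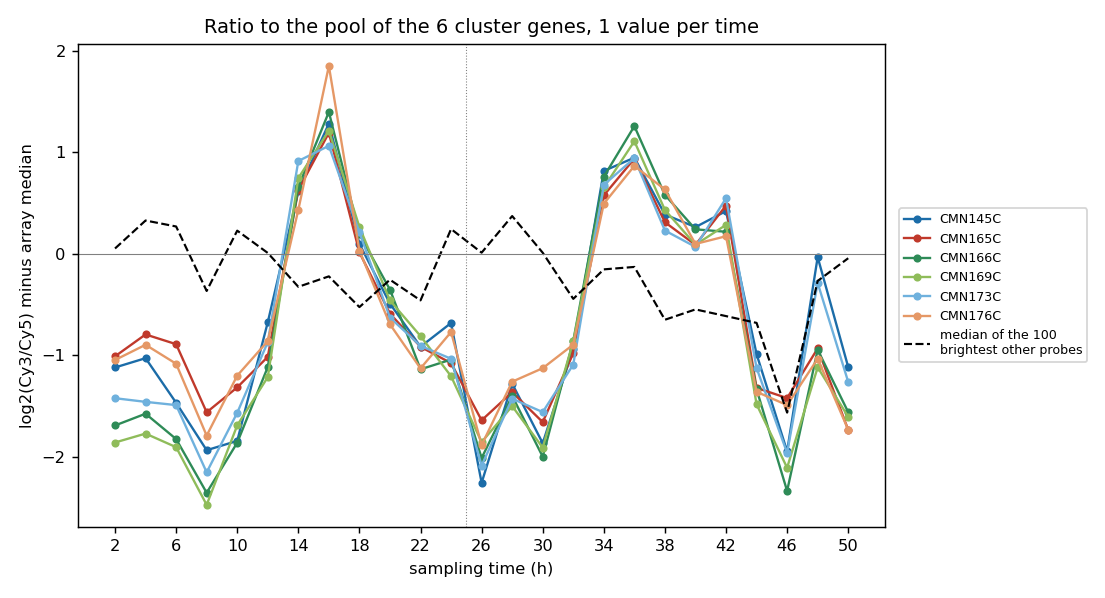
Log2 ratio of sample to mixture, centred on the array median, against sampling time in hours for the 6 genes (coloured lines, 1 value per time) and for the median of the 100 brightest other probes on each array (dashed line). The 6 genes are at 1.07 to 1.85 at 16 h and at 0.87 to 1.26 at 36 h, and the dashed line reaches -1.57 at 46 h.

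CMN166C and CMN169C share the shortest coding length and had the deepest lows of the first cycle, with median centring, with loess and in the authors' deposited log2 values. Over the whole course the deepest low was that of CMN169C with median centring and that of CMN145C, at 26 h, in the other 2. Over 25 times CMN166C ranged from -2.36 to 1.40 with a median of -1.12. It went from -2.36 at 8 h over -1.12 at 12 h and 0.66 at 14 h to 1.40 at 16 h, and back to 0.20 at 18 h and -1.14 at 22 h. In the second cycle it went from -2.01 at 26 h over -0.86 at 32 h and 0.76 at 34 h to 1.26 at 36 h. It was still at 0.22 at 42 h and then stood at -1.34 at 44 h. The highest ratio was 13.5 times the lowest in the first cycle. In the second it was 12.1 times the lowest, which was -2.34 at 46 h, and 9.56 times in the authors' deposited values, whose low was at 30 h. CMN169C followed the same course, from -2.48 at 8 h to 1.22 at 16 h and from -1.91 at 30 h to 1.11 at 36 h. Its first rise was 12.9-fold, and its highest ratio of the second cycle was 9.33 times its lowest, which was -2.11 at 46 h. The 46 h lows depend on the scaling, as described further on. In both genes the low at 8 h lay below the low that came before the second rise.

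CMN145C and CMN173C share the middle length. CMN145C climbed from -1.94 (8 h) to 0.62 (14 h) and 1.29 (16 h) and was back at 0.10 by 18 h. After a low of -2.26 (26 h) it reached 0.82 (34 h) and 0.95 (36 h), and it still had 0.42 at 42 h. Its highest ratio was 9.34 times its lowest in the first cycle and 9.24 times in the second. CMN173C climbed from -2.16 (8 h) to 0.92 (14 h) and 1.07 (16 h) and was at 0.21 by 18 h. Its second rise led from -2.09 (26 h) to 0.68 (34 h) and 0.94 (36 h), with 0.55 left at 42 h. Between 14 and 16 h CMN173C gained 0.15, while the other 5 genes gained at least 0.47, and with loess CMN173C was highest at 14 h.

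CMN165C and CMN176C share the longest length. CMN165C had the narrowest range of the 6, from -1.74 at 50 h to 1.19 at 16 h, and its folds within a cycle were 6.76 and 6.39. CMN176C had the highest single ratio of the 6, 1.85 at 16 h, after 0.43 at 14 h and before 0.03 at 18 h. Series 1 and 2, taken as readings of the same sample, gave 1.90 and 1.82 for CMN176C at 16 h. Its Cy3 reading there was 397939, while those of the other 5 genes lay close together between 603289 and 642369, and whether a ceiling of the scanner sets this order was not tested. In the second cycle CMN176C reached 0.87 at 36 h, the lowest of the 6 there. Its high was thus the sharpest of the 6 in the first cycle and broad in the second.

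The rise was steep and close to simultaneous. Between 12 and 14 h the 6 genes gained 1.29 to 1.96 on the log2 scale, and they took places 4 to 27 among 4576 genes ordered by that step. Between 32 and 34 h they gained 1.39 to 1.77 and took places 1 to 12, with CMN173C, CMN145C and CMN166C at 1, 2 and 6. With loess the largest step of the second cycle came earlier, from 30 to 32 h, in CMN145C (1.57), CMN166C (1.77) and CMN169C (1.65), and from 32 to 34 h in the other 3. With median centring the largest step of the second cycle in CMN145C was 1.92, from 46 to 48 h, above its 1.75 from 32 to 34 h. The brightest other probes rose there too, from -1.57 at 46 h to -0.27 at 48 h. The brightest other probes stepped by -0.33 and 0.29 from 12 to 14 h and from 32 to 34 h. The 6 genes fell by 0.85 to 1.82 from 16 to 18 h, at places 4 to 63 from the largest fall, and by 1.41 to 1.80 from 42 to 44 h, at places 7 to 24. The brightest other probes moved by -0.30 and -0.07 there. With loess the largest fall of the first cycle came from 16 to 18 h only in CMN176C (1.354). It came from 18 to 20 h in CMN145C, CMN166C and CMN173C and from 22 to 24 h in CMN165C and CMN169C. In the second cycle it stayed at 42 to 44 h in all 6 genes with loess.

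At their highs the genes stood near the top of the whole array. By ratio to the mixture, which compares each gene with its own level in the pool and not genes with each other, they held places 2 to 25 of 4576 at 16 h and 8 to 50 at 36 h. At 2 to 10 h and at 26 to 30 h all 6 were among the 50 lowest. At 16 h, 5 of them were also the 5 brightest Cy3 readings of the array, with CMN169C at 642369 the highest and CMN165C at 603289 the fifth. The files carry no mark for saturated spots, so how far a ceiling of the scanner held these 5 ratios down at 16 h was not tested.

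The second cycle differed in shape. The time at which a gene passed the midpoint between its lowest and highest ratio, read by straight lines between samples, was 12.4 to 13.4 h on the way up in the first cycle and 32.3 to 32.7 h in the second. These crossings lay 19.2 to 20.2 h apart. On the way down the crossings came at 18.01 to 20.97 h and 42.9 to 43.5 h, 21.9 to 24.9 h apart. The high therefore lasted 4.63 to 8.38 h in the first cycle and 10.2 to 11.2 h in the second, wider in all 6 genes. The highest ratio was lower in the second cycle by 0.10 in CMN169C to 0.99 in CMN176C. With loess, which also removes a trend with brightness, the crossings upward lay 18.8 to 19.5 h apart. The widths were then 5.40 to 9.60 h in the first cycle. In the second they were 11.4 to 11.6 h, apart from 17.4 h in CMN145C and 16.8 h in CMN173C. Those long widths ended at crossings of 49.2 and 48.8 h, past the array of 46 h, where ratios depend on the scaling. The highest ratio differed with loess by between -0.56 and 0.03. The highest time of the second cycle with loess was 36 h in CMN166C, CMN169C and CMN173C and 38 h in the other 3.

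**Figure D2:**
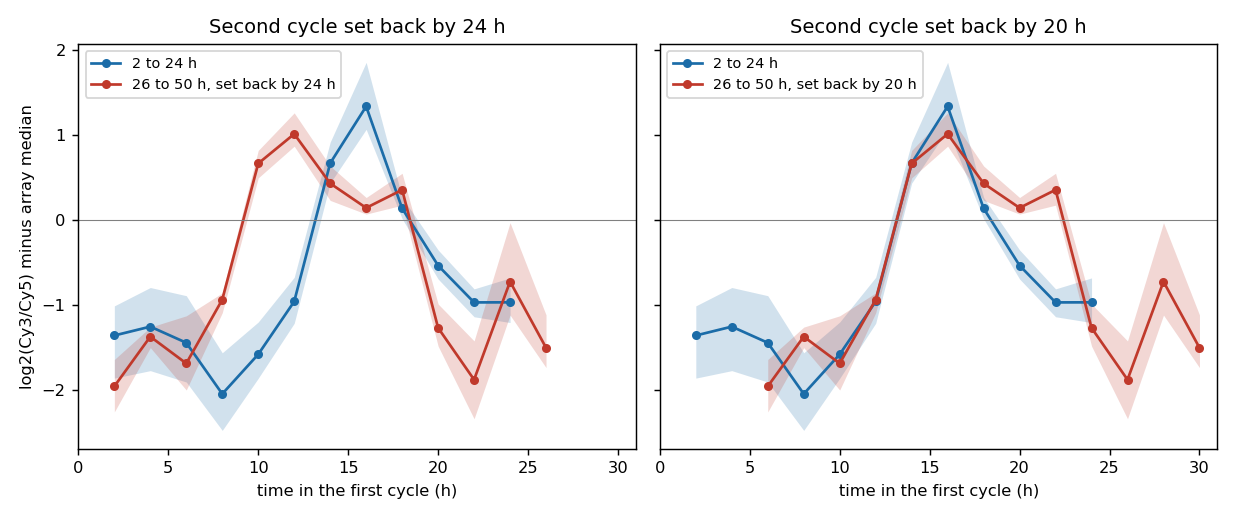
Mean log2 ratio of the 6 genes (points) with their lowest and highest (shaded) against time in hours, for 2 to 24 h (blue) and for 26 to 50 h set back by 24 h (left, red) or by 20 h (right, red). Set back by 20 h the rises from 12 to 16 h and from 32 to 36 h overlie each other, while the fall of the second cycle comes later.

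Matched times 24 h apart show the same difference. At 34 h the genes were 1.70 to 2.66 above 10 h, and at 36 h 1.62 to 2.38 above 12 h, in 6 of 6 genes. At 40 h they were 1.00 to 1.76 below 16 h, also in 6 of 6. Set against itself at separations from 16 to 30 h, each of the 6 profiles was most alike at 20 h, with r from 0.77 to 0.91 over 15 pairs of times. At 24 h r was 0.42 to 0.51 over 13 pairs. With loess r was 0.71 to 0.92 at 20 h, 0.67 to 0.85 at 22 h and 0.54 to 0.63 at 24 h, and CMN176C was then more alike at 22 h (0.763) than at 20 h (0.710). These correlations share the same 25 arrays and carry no test.

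Other genes peaking at that hour moved likewise. Of 270 other genes called rhythmic, 84 had a fitted peak within 3 h of the 6, and 45 of these (53.6%) were also most alike at 20 h. Over all 270 the share was 21.5%, and 24 h was the commonest separation with 37.4%. The peak fitted to the second cycle alone was earlier than that of the first in 73 of the 84, with a median shift of -2.55 h. In the cluster the shift ran from -3.80 h in CMN166C to -2.90 h in CMN165C. Whether the 6 genes differ in this from the 84 was not tested.

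A change of the curve between cycles was tested in limma as the interaction of a 24 h cosine and sine with cycle, over 24 times and with adjustment over all 4576 genes. It called 0 of the 6 genes, beside 0.721% of all genes (33). The smallest adjusted p in the cluster was 0.0697 for CMN169C, followed by 0.0943 for CMN166C, and the other 4 lay between 0.238 and 0.290. Unadjusted, 5 of the 6 had a p under 0.05, against 17.4% of all genes. Nothing is read from this contrast. The 6 were picked with large daily changes known, and their median peak-to-trough was 2.05 against 0.235 over all genes. They also share 1 course, so they do not count as separate observations. CMN169C was called with loess (adjusted p = 0.0342 in limma), and CMN166C and CMN169C in the authors' deposited log2 values (0.0394 and 0.0258 in limma) and without 48 h (0.0339 and 0.0305 in limma). The shift was negative in all 222 combinations of gene and alternative setting, from -4.29 to -1.32 h. These combinations rework the same samples in genes of like course, so neither genes nor settings count as replicates.

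The level of the second cycle was set against the first in 12 differences between times 24 h apart. The profiles were most alike at 20 h, so such pairs join unlike parts of the course. Median differences of the 6 ran from -1.115 (40 minus 16 h) to 2.299 (34 minus 10 h). This scatter enters the standard errors below and limits what the test can detect. CMN169C differed by 0.24 ± 0.31 (log2, standard error, 12 differences; 95% interval -0.41 to 0.90) and was higher at 7 of 12 matched times. CMN176C differed by 0.03 ± 0.25 (95% interval -0.50 to 0.57) and was higher at 5 of 12. The other 4 lay between these, and adjusted p-values from limma ran from 0.765 to 0.972. Of the 6, 0 were called, beside 2.03% of all genes. An unadjusted p under 0.05 was found for 0 of the 6 and for 15.8% of all genes. The upper ends of the intervals reached 0.91 in CMN166C and 0.90 in CMN169C on the log2 scale.

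The fitted 24 h curve sums up size and timing over all 25 times. Peak-to-trough was 2.41 ± 0.40 (log2, standard error of the fit) in CMN166C, 2.40 ± 0.38 in CMN169C and 2.11 ± 0.36 in CMN173C. It was 1.99 ± 0.39 in CMN145C, 1.95 ± 0.33 in CMN176C and 1.85 ± 0.31 in CMN165C. Neighbours in this order lie closer than their errors. Peaks ran from 14.7 h in CMN176C to 15.5 h in CMN145C, with errors of 0.62 to 0.76 h, so the 6 are not put in an order of time. The call rule, an adjusted p under 0.05 with a peak-to-trough of at least 1, held for all 6, beside 6.03% of all genes (276). Nothing is read from that count, because the genes were picked by it. With loess peak-to-troughs were 2.49 to 3.07 and peaks 15.6 to 16.2 h.

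**Figure D3:**
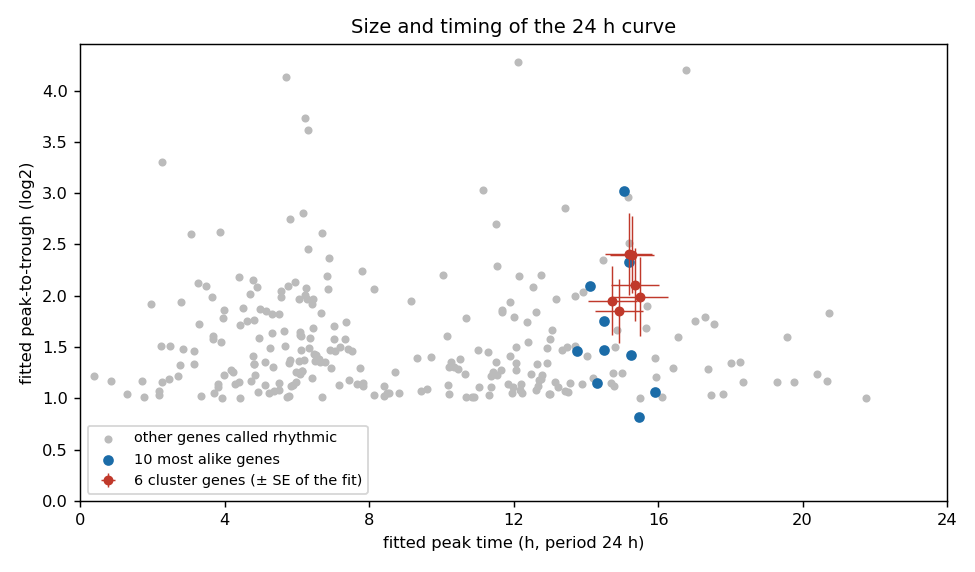
Fitted peak-to-trough on the log2 scale against fitted peak time in hours for the genes called rhythmic (grey), the 10 genes most like the cluster (blue, of which CMG071C is not called) and the 6 cluster genes (red, bars are the standard error of the fit). The 6 sit between 14.7 and 15.5 h and between 1.85 and 2.41, and 25 other called genes peak after 15.5 h and up to 24 h.

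Among the genes called rhythmic the cluster came late when peaks are ordered from 3 h, a starting point chosen here. In that order 217 of the 270 other called genes peaked before the earliest cluster gene. A further 11 peaked between the earliest and the latest, and 25 later up to 24 h. The remaining 17 peaked from 0 to 3 h. By the range of their ratio the 6 genes held places 32 (CMN166C) to 127 (CMN165C) of 4576, with a median range of 3.62 against 0.92 over all genes. All 6 spanned at least 2 on the log2 scale, beside 10.8% of all genes. The genes were picked with their large changes known, so these places and this count are description only.

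**Figure D4:**
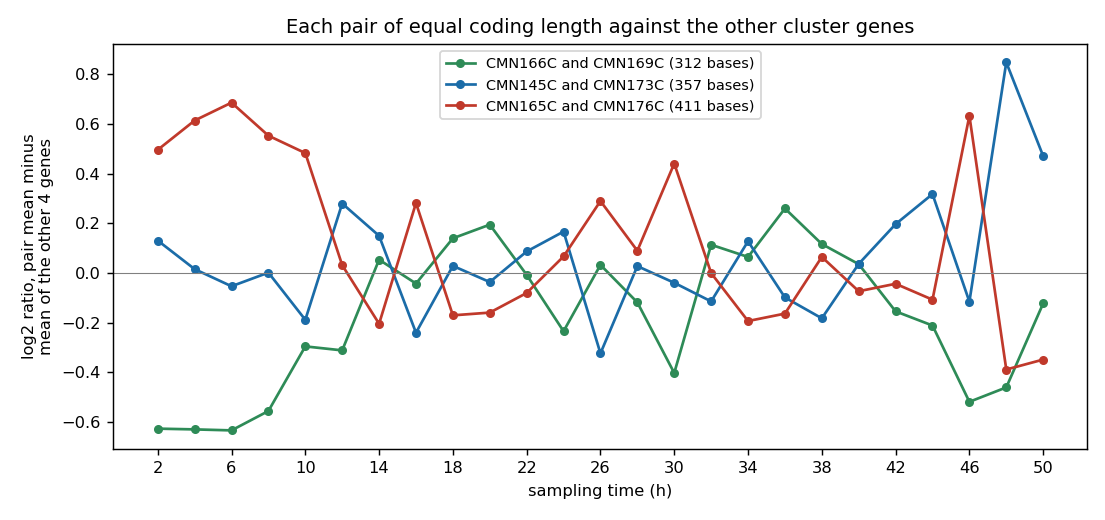
Mean log2 ratio of each pair of equal coding length minus the mean of the other 4 cluster genes, against sampling time in hours. The 312-base pair is lowest and the 411-base pair highest from 2 to 8 h, and the 357-base pair stands 0.85 above the other genes at 48 h.

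Within the cluster, the difference between 2 genes varied least over time where their coding lengths were equal. Over 25 times the 15 pairs of genes had r from 0.92 to 0.99. The 3 pairs of equal length had 0.99 (CMN166C and CMN169C), 0.98 (CMN145C and CMN173C) and 0.97 (CMN165C and CMN176C). The 12 pairs of unequal length had 0.921 to 0.976, and 3 of them were above CMN165C and CMN176C at 0.968, so r alone does not set the equal pairs apart. The SD of the difference was 0.15, 0.20 and 0.24 on the log2 scale in the 3 equal pairs, against 0.27 to 0.40 in the 12 pairs of unequal length. Whether genes of equal length are near-identical copies was not checked. Such copies can bind each other's probes, and how far the 2 readings of such a pair are separate was not tested, since no probe or gene sequence was used here.

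Pairs parted in the lows of 2 to 10 h, and again at 30 and 46 h. From 2 to 8 h CMN166C and CMN169C lay below all other 4 genes, by 0.56 to 0.63 in the mean. From 2 to 10 h CMN165C and CMN176C lay above all other 4, by 0.48 to 0.69 in the mean. At 6 h, for example, the ratios were -1.91 in CMN169C, -1.83 in CMN166C, -1.08 in CMN176C and -0.89 in CMN165C. Between 32 and 42 h all 6 stayed within 0.20 to 0.41 of each other. At the lows of 26 and 28 h the 6 lay within 0.62 and 0.24. At 30 and 46 h they lay within 0.873 and 0.915. CMN166C and CMN169C were below all other 4 at both of these times, with mean differences of -0.402 and -0.518. For CMN165C and CMN176C the mean differences from the other 4 were 0.441 and 0.633. Those 2 genes lay above all other 4 at 46 h but not at 30 h. At 36 h CMN166C and CMN169C were above the other 4, while at 16 h their mean differed from that of the other 4 by -0.04. CMN165C and CMN176C had the highest mean of the pairs at 16 h, by 0.28 over the other 4. That mean was high through CMN176C at 1.85, while CMN165C at 1.19 lay below CMN166C (1.40) and CMN169C (1.22).

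The widest spread of the 6 was 1.09 at 48 h, where CMN145C and CMN173C parted from the rest. At 48 h CMN145C was at -0.03 and CMN173C at -0.29, while the other 4 lay between -1.12 and -0.93. The 2 genes had been at -1.95 and -1.96 at 46 h, inside the range of the others, and were at -1.12 and -1.26 at 50 h, above the range of -1.74 to -1.56 of the other 4. Series 1 and 2 each gave the same order for CMN145C at 48 h, with -0.02 and -0.04. This contrast was picked after its values were seen and rests on single arrays, and the brightest other probes went from -1.57 at 46 h to -0.27 at 48 h.

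The low at 46 h depends on the scaling. The 6 genes were at -2.34 to -1.42 there, and the brightest other probes at -1.57. With loess the 6 were at -0.61 to 0.30. For this reason the lowest time of the second cycle was 46 h in CMN166C and CMN169C with median centring and 26 and 30 h with loess. The lows of 26, 28 and 30 h stood with both, at -2.26 to -1.13 with median centring and -2.29 to -1.14 with loess, and the brightest other probes were between 0.01 and 0.37 at these times.

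Pool readings of the 6 genes did not keep 1 proportion from array to array, although the same mixture was meant to be on each. At 46 h Cy5 was 360244 for CMN166C and 84864 for CMN165C, a 4.25-fold gap and the widest of the 15 pairs. At 24 h the order was the other way, with 24240 and 52760. The log2 Cy5 readings of CMN165C, CMN169C and CMN173C followed each other with r of 0.982 to 0.995 over 25 arrays, and CMN145C and CMN166C with 0.971, which are not the pairs of equal length. Ratios use both dyes of a spot, and the 6 ratios followed each other with r of at least 0.92. At 46 h the ratios of the pair were -2.34 and -1.42, and the part of the pool readings in this gap was not tested.

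The genes between the 6 did not share their course. Along the chromosome the order is CMN165C, CMN169C and CMN145C, then CMN166C, CMN173C and CMN176C, and each of these runs of 3 holds 1 gene of each coding length. Between the outermost 2 the table lists 10 further genes. CMN170C, CMN344C, CMN345C and CMN174C were not analysed here. CMN345C has 411 bases, as long as CMN165C and CMN176C. The 6 measured ones, CMN146C, CMN147C, CMN148C, CMN167C, CMN171C and CMN175C, named after their values were seen, had ranges of 0.54 to 1.54 and r with the mean of the cluster between -0.37 and 0.18. At 16 h they were between -0.23 and 0.28 and at 36 h between -0.27 and 0.11, below all 6 cluster genes. By the call rule 0 of these 6 were rhythmic, beside 6.03% of all genes, so nothing is read from that count.

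**Figure D5:**
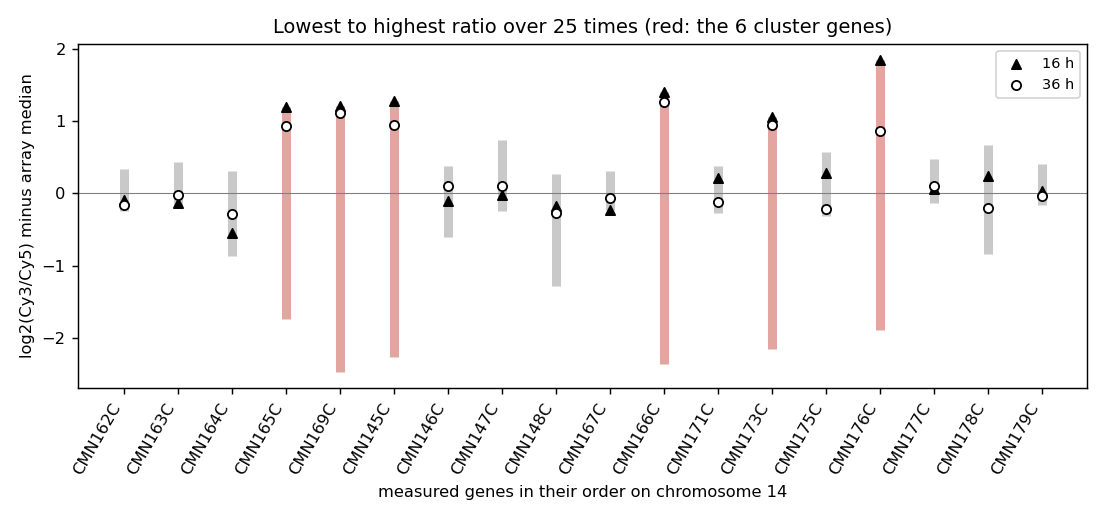
Lowest to highest log2 ratio over 25 times (bars) with the values at 16 h (triangles) and 36 h (circles) for the measured genes in their order on chromosome 14, the 6 cluster genes in red and 12 neighbours in grey. Grey genes lying between red ones stay between -0.27 and 0.28 at both times.

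Of the 25 genes measured with tags from CMN145C to CMN176C, 19 are outside the cluster. CMN156C was the only one of these called, beside 6.03% of all genes. It had a range of 2.57 and a peak-to-trough of 1.45 ± 0.27, with a peak at 11.3 h, earlier than all 6. The other 18 had ranges under 2, while 10.8% of all genes had a range of at least 2.

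The genes most like the cluster were sought over 25 times among 1962 genes with a range of at least 1. CMR096C came first with r = 0.92 to the mean of the 6, then CMP119C, CMT504C and CMN330C with 0.91 each. CMG071C, CMR047C and CMR457C had 0.90, CMN183C 0.892, CMO005C 0.885 and CMB015C 0.883. Of these 10, 0 reached the r of a cluster gene with that mean, which was 0.97 to 0.99. Nothing is read from this, because the mean holds each cluster gene itself and none of the 10. CMT504C swung wider, with a peak-to-trough of 3.02 ± 0.46 and a peak at 15.1 h. CMN330C was close to the cluster in both, with 2.33 ± 0.38 and 15.2 h. CMR096C had a peak-to-trough of 1.06 ± 0.29, and CMG071C had 0.82 ± 0.26 with an adjusted p of 0.0593 in limma, so it was not called. All 10 had an earlier peak in the second cycle than in the first, by the fits to each cycle. The 10 were picked by likeness over both cycles to genes with that same shift, so it is no separate observation. The gene table gives these 10 no names.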

How the data were processed

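Amino-allyl RNA was made from total RNA with an oligo(dT) primer, per the labels' protocols, and samples carried Cy3 and the mixture Cy5. Per the file headers, the deposited files hold raw intensity values of both dyes, a scaled Cy3 intensity, the ratio of scaled Cy3 to Cy5, and a log2 value. The sources used here do not give probe design, scanner or background handling, and no background column entered. Raw intensities of series 3 gave log2(Cy3/Cy5), centred on the array median, with probes of 1 gene averaged (4586 probes, 4576 genes). Series 1 and 2 at 14 h hold only log2 values, so 73 of 75 arrays have intensities, and 14 h could not be compared between series. The series table was used for the authors' deposited log2 values, which equal the sample's own column in 74 of 75 samples. Same-numbered arrays are a labelled series of readings. Because series 3 is the mean of the others, a block on the number removes no culture effect, and it is given with the alternatives.

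Fits used limma 3.58.1 in R 4.3.3 across all genes with Benjamini-Hochberg adjustment: a 24 h cosine and sine over 25 times (called at adjusted p under 0.05 and peak-to-trough of at least 1), the mean of 12 matched differences (adjusted p under 0.05 and 1.5-fold) and the interaction of the curve with cycle (adjusted p under 0.05). The p-values measure scatter of single arrays in time. The scripts were tested on simulated data. The 6 genes, the lists and the alternatives were chosen with earlier results of these data known. Named genes were the 6, called or wide-ranging genes with tags between theirs, and the 10 most like their mean profile. Planned lists of histone, tubulin, replication and chromatin genes had no member, since the gene table gives no product names. The number of arrays limits the precision.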

Additional observations from a re-analysis of the deposited data

How the results depend on the processing

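Under all alternatives run, 0 of the 6 genes were called for level. Their rhythm call is left out, since they were picked by it. Rhythmic genes numbered 276, and 444 with normexp. Level calls numbered 93, with 53 under loess and 160 with normexp. Genes whose curve changed between cycles numbered 33, with 108 under loess, 103 with scaling between arrays, 67 with normexp, 64 in the authors' deposited log2 values, 15 without the arrays of 2, 4, 6 and 26 h and 448 with array weights. When each array counted as a value of its own it was 2813, and 2770 with the replicate block. Both count what were taken as readings of 1 sample as samples, which lowers the error, and called all 6 cluster genes. Cluster genes called for this change numbered 1 under loess and 2 in the authors' log2 values. Leaving out single times gave 10 (without 42 h) to 60 (without 26 h) genes and 0 to 2 cluster genes. The small level differences changed sign with array weights, to -0.16 in CMN145C, -0.13 in CMN165C, -0.025 in CMN173C and -0.25 in CMN176C. With single times left out they ran from -0.088 to 0.26 in CMN145C, from -0.14 to 0.14 in CMN165C and from -0.12 to 0.19 in CMN176C. The cause of the other changes was not tested. Peak-to-trough of the 6 genes stayed between 1.69 and 3.07 and peak time between 14.35 and 16.2 h. Pool readings that shift between arrays and the lack of a saturation mark limit what single times can show.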
